A study of Schizosaccharomyces pombe with 8 samples.

Results

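The 8 hexose transporter genes of fission yeast, ght1 to ght8, were examined for histone H3 and for H3 trimethylated at lysine 4 (H3K4Me3) at the start of premeiotic S phase. A gene's probes were those on the array that overlapped its annotated extent or the 500 bp on either side. The 8 genes had 96 such probes of 42641 nuclear probes, and 81 remained after removal of spots that the scanner software had marked as outliers on any array, 7 to 16 per gene. The comparison set was 4318 protein-coding genes that had a value by the same rule, of 4365 genes in the part of the genome where the annotation could be laid over the probes.

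All samples were Schizosaccharomyces pombe labelled pat1-114. The strain is taken to be PN2159, the pat1-114 diploid in the paper's strain list with no engineered change. It is a diploid homozygous for mating type h+ and for the temperature-sensitive allele pat1-114, with ade6-M210 on one chromosome and ade6-M216 on the other, and a shift to 34°C inactivates the Pat1 kinase and starts meiosis. In the −N groups the cells had been starved of nitrogen and then re-fed, and were taken 2 h after the shift. In the +N groups the cells stayed in nitrogen-rich medium, received M-factor, a mating pheromone, and were freed of it by filtration before the shift, and were taken 30 min after it. Pheromone, nitrogen history and sampling time therefore cannot be told apart between −N and +N. Chromatin immunoprecipitation (ChIP) with an antibody against H3 (ab1791) or H3K4Me3 (ab8580) was hybridized against input DNA. There were 2 arrays for each antibody in each condition, 8 in all, and replicate 1 of every group was on slide 1 and replicate 2 on slide 2.

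The ght genes encode membrane proteins of the major facilitator superfamily that bring hexoses and related sugars into the cell, and in this yeast several of them are controlled by glucose. Ght5 is the main high-affinity glucose importer, Ght1 and Ght2 also carry glucose, Ght6 prefers fructose, and Ght3 takes up gluconate. Histone H3 marks nucleosome occupancy. Trimethylation of its lysine 4 is laid down by the Set1 complex over the 5′ part of transcribed genes, so that a transcribed gene usually carries a peak of the mark just inside its start.

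Levels are given as log2 of ChIP over input signal, centred on the median probe of each array, so that 0 is the level of the middle probe and positive values lie above it. They are relative levels within an array and do not count molecules. Low ratios were less well measured on slide 1, where the ChIP signal of 44.6% to 89.2% of nuclear probes was well above background, than on slide 2, where it was 90.2% to 98.5%. Over the 81 probes used, the members differed in this respect. No H3K4Me3 measurement at ght7 was well above background on slide 1, and 11.5% were at ght1 and 14.3% at ght8, whereas 77.8% were at ght5.

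A further limit concerned the input. At 8 of the 81 probes (3 at ght1, 4 at ght6 and 1 at ght7) the input signal was not well above background on at least 1 array, as was the case for 4.08% of all probes used. At 3 of these, 530 bp from the 5′ end of ght1 and 2026 and 2202 bp from that of ght6, both channels were below that limit on all 8 arrays. These 3 probes had H3 ratios of 1.86 to 2.87 on slide 1 and −1.19 to 0.14 on slide 2. Several region values at ght1, ght6 and ght7 are therefore given without such dim-input probes too, where stated. Averages over the 5′ end include them.

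The members ght6, ght5, ght8 and ght1 lie together in 30.5 kb of chromosome III. In coordinates of the reference assembly (ASM294v3), ght6 is at chr III 204733 to 206717, ght5 at 212313 to 214376, ght8 at 226336 to 228845 and ght1 at 232288 to 235195, the last 2 on the minus strand. On chromosome II, ght7 (38514 to 40143, minus strand) is 38.5 kb from the left end, ght4 is at 155772 to 159570 and ght2 at 3427160 to 3429424. On chromosome I, ght3 is at 82936 to 84786. All 8 coding sequences are 1 uninterrupted exon of 1557 to 1674 bp. The annotated transcripts of ght1, ght2, ght4 and ght8 start 688, 412, 1783 and 445 bp before the start codon. The annotations of ght3, ght5, ght6 and ght7 begin at the start codon, so that for these 4 genes the 5′ end used here is the start codon and not a mapped transcript start.

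The coding sequences resemble each other, with identities from 62.1% (ght3 and ght6) to 92.2% (ght5 and ght8), and ght3 and ght4 were the second closest pair at 81.8%. Over their full length, 8 of the 81 probes matched another member at more than 80% of bases, and 1 at more than 90%. That probe, centred 435 bp into ght5 (chr III 212726 to 212770), is shown with its match in ght8 (chr III 227943 to 227987, minus strand), as the closest match between members by this measure. Capitals mark the 4 of 45 bases that differ.
ght5: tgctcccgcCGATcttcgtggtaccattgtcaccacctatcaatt
ght8: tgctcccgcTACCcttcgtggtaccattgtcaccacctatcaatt
H3K4Me3 was 0.32 to 0.90 at this ght5 probe over the 4 arrays. How much of the signal at such probes came from the other gene was not tested.

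The glucose importer genes differed widely in H3K4Me3. At ght5, H3K4Me3 over the gene with its flanks was 0.85 and 0.90 on the −N arrays and 0.89 and 1.01 on the +N arrays, close together on all 4. Of the family only this gene and, with all its probes, ght6 stood above the median of all genes (0.61). The signal was concentrated upstream of the start codon, with 3.78 at the probe at −326 bp (3.08 to 4.20 over the arrays) and 3.16 at −142 bp (2.25 to 3.74). It declined to 1.58 at 240 bp and to −1.25 at 2018 bp, beyond the stop codon. H3 at ght5 was −0.65 and −0.36 on the −N arrays and −0.80 and −0.53 on the +N arrays, at percentile 11.9 of all genes.

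At ght2, H3K4Me3 over the region was −0.02 and −0.06 on the −N arrays and −0.01 and 0.16 on the +N arrays. These values are close to 0 in all 4 arrays, but they average a sharp pattern. The probe at 268 bp, inside the annotated leader and before the start codon at 412 bp, had 2.13 and 2.61 on the −N arrays and 2.80 and 3.47 on the +N arrays. An antisense noncoding gene, SPNCRNA.6127 (chr II 3424928 to 3427498), begins at 338 bp and covers this probe. Since ChIP has no strand, the peak cannot be assigned to ght2 rather than to that gene. The mark declined along the gene, to −1.88 at 1848 bp, and was 1.12 at 2646 bp, within the neighbouring gene prp39. H3 was highest in the coding region (0.74 at 1142 bp) and lowest at that last probe (−1.99).

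No such peak was measured at ght1. Over the region its H3K4Me3 was −0.91 and −1.19 on the −N arrays and −0.23 and −0.87 on the +N arrays. Without the 3 dim-input probes the values were −1.75 and −1.39 on the −N arrays and −1.02 and −0.87 on the +N arrays. The region then stood at percentile 2.34 of all genes, and its highest remaining probe was at 3420 bp, past the 3′ end. H3 without those probes ran from −0.38 to 0.07, around the median of all genes (−0.18).

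The gene of the fructose-preferring transporter, ght6, is also listed as meu12 in the annotation's synonyms, a name of the series of genes found to be upregulated in meiosis. With all 9 probes its mean H3K4Me3 was the highest of the family, but it was above ght5 on 2 of 4 arrays, those of slide 1. The values were 1.22 and 0.79 on the −N arrays and 1.69 and 0.82 on the +N arrays, with replicate 1 above replicate 2 in both conditions. Without the 4 dim-input probes the values were 0.08 and 0.21 on the −N arrays and 0.36 and 0.62 on the +N arrays, and ght5 was then above ght6 on all 4 arrays. The remaining 5 probes showed no peak. They had means between −0.30 and 0.92. The probe at the start codon itself had dim input, so that the 5′ end of ght6 was poorly measured.

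At ght3, which encodes the gluconate transporter, H3K4Me3 over the region was −0.50 and −0.38 on the −N arrays and −1.10 and −1.17 on the +N arrays. Both +N arrays lay below both −N arrays. As at ght5, the mark was highest before the start codon, with 2.95 at −222 bp as the mean of 4 arrays, and declined to −2.72 at 1894 bp. H3 was −0.47 and −0.31 on the −N arrays and −0.61 and −0.50 on the +N arrays, slightly below the middle probe along the whole gene.

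The 3 members for which no sugar is named here differed most in H3. At ght4, H3 was −0.99 and −0.98 on the −N arrays and −1.31 and −0.95 on the +N arrays, at percentile 2.13 of all genes. The low values lay in the long annotated leader. H3 was −2.08 at 186 bp, −3.37 at 482 bp, −3.16 at 860 bp and −2.27 at 1068 bp, and returned to 0.22 at 1556 bp. At 482 bp the single arrays had −2.78 and −3.32 on the −N arrays and −3.99 and −3.37 on the +N arrays, and H3 was well above background there on 2 of 4 arrays, so that the depth of the trough is uncertain on the others. The stretch holds a noncoding gene on the same strand, SPNCRNA.298 (chr II 156254 to 157003), and the start of an antisense one, SPNCRNA.1318, whose own ratio cannot be separated from that of ght4 since ChIP has no strand.

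H3K4Me3 at ght4 peaked at 1556 bp, shortly before the start codon at 1783 bp, with 1.20 and 3.05 on the −N arrays and 1.22 and 2.78 on the +N arrays. Replicate 2 was higher in both conditions. In the first 750 bp from the annotated 5′ end and the 250 bp before it, H3K4Me3 was −1.04, at percentile 2.48. H3 in this stretch was lower still, −2.105, at percentile 0.35. H3K4Me3 minus H3 was 0.81 in −N and 1.33 in +N there. The highest H3K4Me3 ratio at ght4 stood next to the coding sequence and not next to the annotated transcript start. How far the H3 trough accounts for this was not tested. At ght2 no probe used lay between −400 and 268 bp, so the mark could not be placed relative to the transcript start. At ght3 and ght5 the mark was highest before the start codon, and no separate transcript start is annotated.

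H3 at ght7 was 0.74 and 0.35 on the −N arrays and 0.51 and 0.24 on the +N arrays, at percentile 99.5 of all genes, and 0.17 to 0.66 over the arrays without its dim-input probe. H3K4Me3 there was −1.16 and −1.78 on the −N arrays and −1.0 and −2.24 on the +N arrays. It was low at every remaining probe, and the highest of them, 66 bp into the gene, had −0.97. At ght8, H3K4Me3 was −2.13 and −1.41 on the −N arrays and −1.49 and −1.48 on the +N arrays, at percentile 0.741, with no probe mean above −0.72. H3 at ght8 was −0.81 and −0.52 on the −N arrays and −0.54 and −0.72 on the +N arrays.

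**Figure D1:**
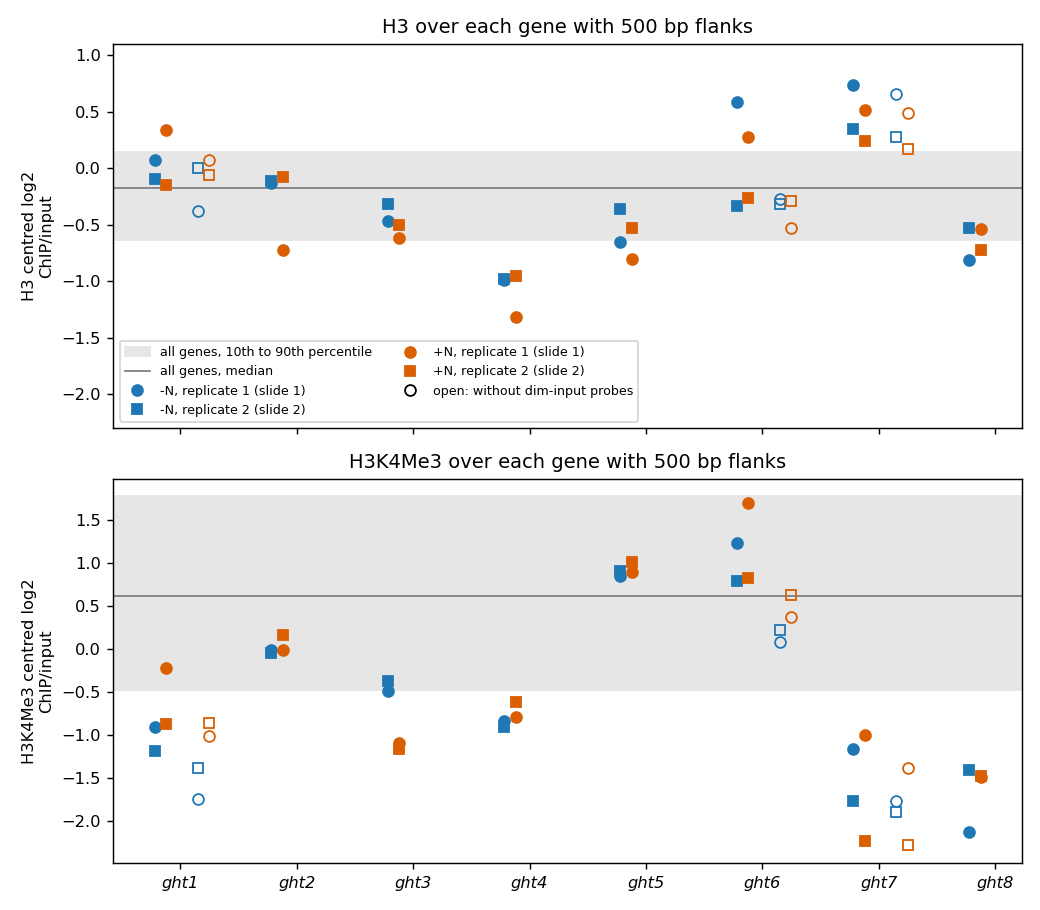
H3 (top) and H3K4Me3 (bottom) over each gene with 500 bp flanks, as centred log2 ChIP/input (y axis) for ght1 to ght8 (x axis). Each point is 1 array, blue for −N and orange for +N, circles for slide 1 and squares for slide 2, open symbols without dim-input probes, over the 10th to 90th percentile (grey band) and median (line) of 4318 genes. For H3 all 4 arrays of ght7 lie above the band and all 4 of ght4 below it, and for H3K4Me3 all 4 arrays of ght4, ght7 and ght8 lie below it. Without dim-input probes (open symbols) all 4 H3K4Me3 arrays of ght1 also lie below the band.

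**Figure D2:**
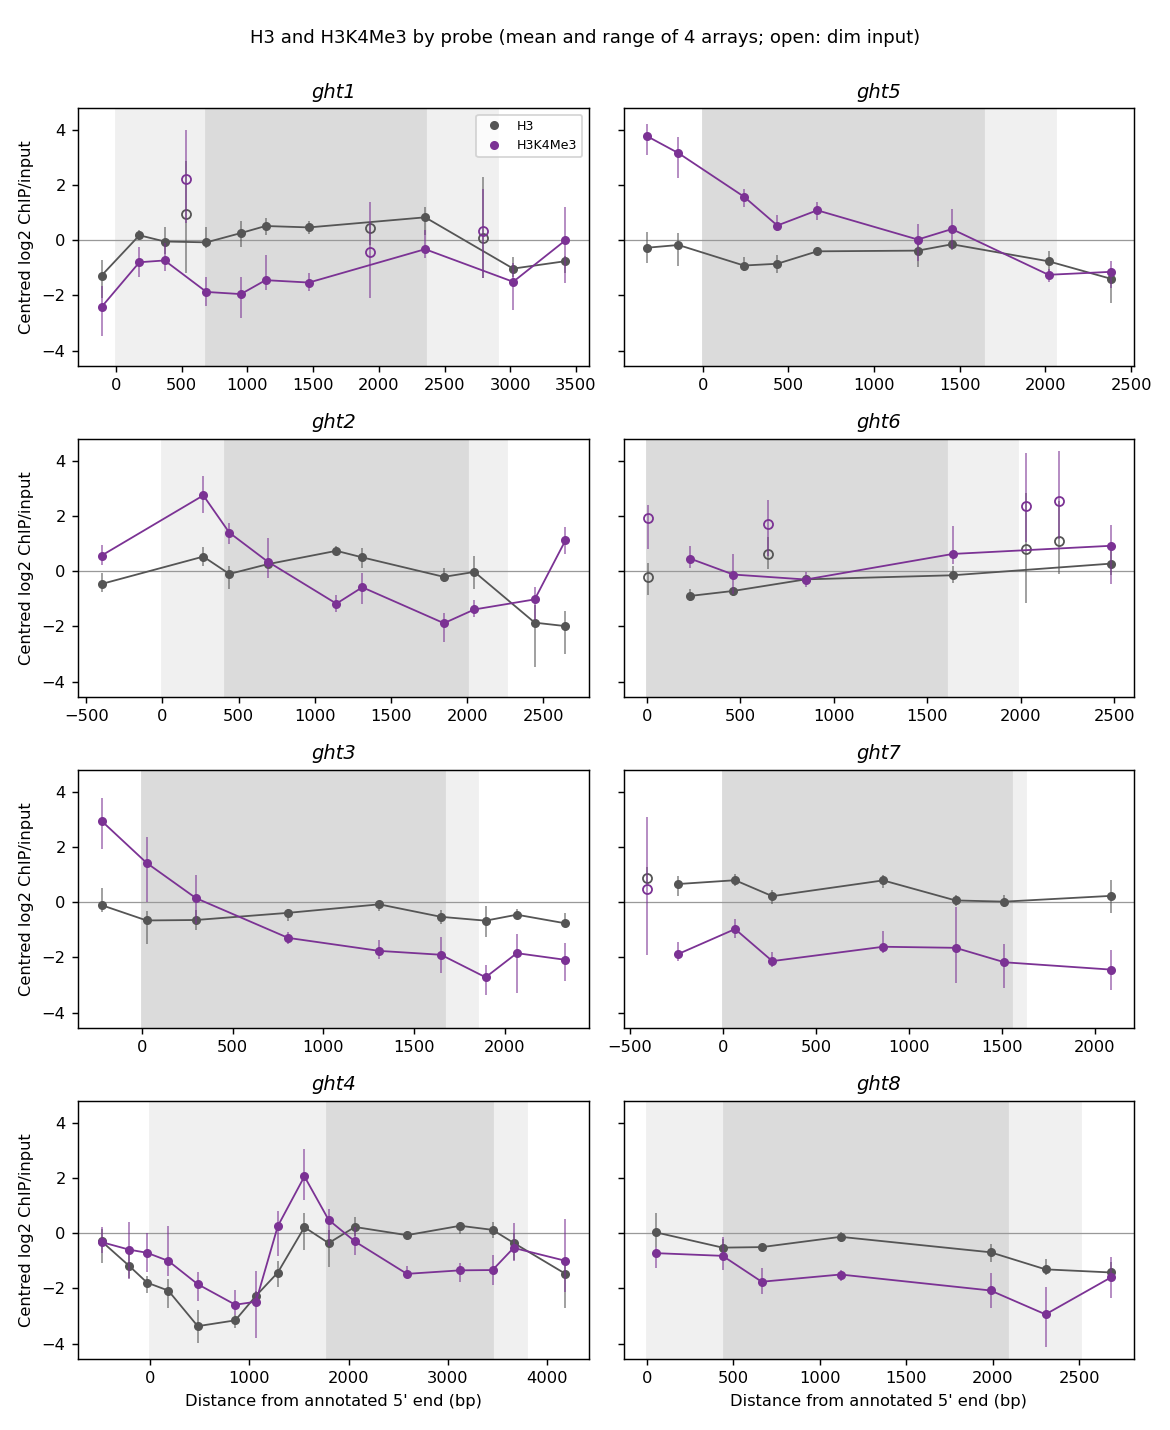
Centred log2 ChIP/input of H3 (grey) and H3K4Me3 (purple) at each probe (y axis) by distance in bp from the annotated 5′ end (x axis), 1 panel per gene. Points are the mean and vertical lines the range of 4 arrays, open points have dim input, light grey is the annotated gene and darker grey its coding sequence. Peaks of H3K4Me3 stand before the coding sequence at ght2, ght3, ght4 and ght5, and the H3 trough stands in the leader of ght4.

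The members were then put in order by their region means without dim-input probes. For H3K4Me3, ght5 (0.91) was above ght6 (0.32) and ght6 above ght2 (0.02) on all 4 arrays. Below ght2 on all 4 arrays came ght3 and ght4, which did not keep an order between them (2 of 4 arrays each way). By its mean ght1 came next, below ght4 on all 4 arrays but above ght3 on both +N arrays. The lowest means were those of ght8 and ght7, which kept no order between them (2 of 4). For H3, ght7 was above ght1 and ght8 above ght4 on all 4 arrays, while ght1, ght2 and ght6 were not in a constant order. At the 5′ end (−250 to 750 bp), with dim-input probes included, the median member had an H3K4Me3 level of 0.14. The level was 1.98 for 4281 genes, of which the 10th percentile was 0.50. With all probes, ght1, ght4, ght7 and ght8 were below that percentile at the 5′ end. The value of ght6 there (1.00) included dim-input probes at 4 and 648 bp, and its other probes, at 232 and 462 bp, had 0.46 and −0.12. That of ght1 (−0.72) included the dim-input probe at 530 bp, which had 2.22. Dim-input probes thus raised the level at these genes and the median member. H3 at the 5′ end of the median member (−0.31) was at the level of all genes (−0.31).

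The 4 members with an annotated leader have a defined promoter, and the 250 bases before their 5′ ends are shown because 3 of these genes had little H3K4Me3 at that end and ght2 had a peak. The short motifs searched, on both strands, are known from carbon regulation or stress in yeasts. They were CCCCTC, the element bound by Rst2 in fission yeast, CCCCAC and CCCCGC, forms of the site of the glucose repressor Mig1 of Saccharomyces cerevisiae (its fission yeast relative is Scr1), and TGACGT, the core bound by Atf1 and Pcr1. Sequences are from the RefSeq reference genome (ASM294v3), 5′ to 3′ on the gene's strand, with the matches in capitals.
ght1 (chr III 235196 to 235445, minus strand): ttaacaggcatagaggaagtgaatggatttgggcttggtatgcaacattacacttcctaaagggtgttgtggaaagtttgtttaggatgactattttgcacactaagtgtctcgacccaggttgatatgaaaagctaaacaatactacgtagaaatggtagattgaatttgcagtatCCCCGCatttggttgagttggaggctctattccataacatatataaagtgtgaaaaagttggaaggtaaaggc
ght4 (chr II 155522 to 155771, plus strand): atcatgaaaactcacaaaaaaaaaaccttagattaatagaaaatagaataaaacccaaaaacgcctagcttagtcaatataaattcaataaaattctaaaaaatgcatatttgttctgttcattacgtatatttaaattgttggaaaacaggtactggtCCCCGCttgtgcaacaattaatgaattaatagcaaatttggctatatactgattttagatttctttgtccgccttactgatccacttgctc
ght8 (chr III 228846 to 229095, minus strand): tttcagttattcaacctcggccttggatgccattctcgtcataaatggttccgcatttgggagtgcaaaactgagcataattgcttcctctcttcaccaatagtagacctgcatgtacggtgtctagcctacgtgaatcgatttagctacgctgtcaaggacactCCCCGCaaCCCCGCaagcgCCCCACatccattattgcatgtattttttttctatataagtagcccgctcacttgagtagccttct
ght2 (chr II 3426910 to 3427159, plus strand): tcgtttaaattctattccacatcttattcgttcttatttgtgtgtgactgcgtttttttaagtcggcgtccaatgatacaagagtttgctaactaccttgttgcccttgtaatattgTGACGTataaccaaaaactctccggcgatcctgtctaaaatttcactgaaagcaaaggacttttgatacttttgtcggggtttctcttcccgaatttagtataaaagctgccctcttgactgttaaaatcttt
CCCCGC was found in 3 of the 4 promoters, starting 73 bp before the 5′ end of ght1, 91 bp before that of ght4, and 85 and 77 bp before that of ght8. It was found in 46 of 4512 promoters of coding genes with an annotated leader (1.02%). CCCCAC was found at ght8 alone among the 4 (66 bp before the 5′ end) and in 2.88% of promoters, TGACGT at ght2 alone (133 bp) and in 5.36%, and CCCCTC at none of the 4 and in 1.77%. When the window was set to the 500 bp before the start codon, which lies partly in the leaders, none of the 4 motifs was present at any of the 8 members. These matches describe the letters in a window only.

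The comparison of +N with −N asks whether chromatin at these genes differed between the 2 routes into meiosis. Over the gene with its flanks, 0 of 8 members passed an adjusted p of 0.05 in the limma test for H3, for H3K4Me3 or for the difference of the 2 changes, against a background of 0% of 4318 genes in each test. With the slide as a block it was again 0 of 8 in each, against 0.0232%, 0.834% and 0%. At an unadjusted p under 0.05 there were 0 members for H3 (background 2.36%), 1 for H3K4Me3 (2.73%) and 1 for the difference (2.5%), each time ght3. Without dim-input probes 0 members passed an adjusted p of 0.05 for H3K4Me3 (background 0%), and 2 had an unadjusted p under 0.05 (2.85%), ght3 and ght1.

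H3 differences were small. They ran from −0.28 at ght2 to 0.11 at ght1, and the 95% intervals of the 8 members together spanned −0.86 to 0.62. The median over members was −0.15, against −0.05 over all genes. Both +N arrays lay below both −N arrays at 1 of 8 members, ght3, against 21.5% of genes, and above them at none, against 9.29%. The value of −0.28 at ght2 came from slide 1, where it was −0.59, while slide 2 had 0.03.

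For H3K4Me3, 6 of 8 members had a positive difference, with a median of 0.14 against 0.01 over all genes. Both +N arrays lay above both −N arrays at 3 members (ght1, ght2 and ght4), against 14.6% of genes, and below them at 1 (ght3), against 15.7%. Without dim-input probes it was 4 above, with ght6 added, against 13.2%, and the 1 below was again ght3, against 16.2%. The difference was then 0.63 at ght1 (95% interval 0.05 to 1.20, 0.73 on slide 1 and 0.52 on slide 2, adjusted p = 0.999), compared with 0.50 (−0.17 to 1.18) with all probes. At ght6 it was 0.35 (−0.20 to 0.90), compared with 0.25 (−0.55 to 1.05), and at ght7 −0.00096 (−0.76 to 0.76), compared with −0.15 (−1.17 to 0.86). Of the 8 intervals, 7 included 0 with all probes, and that of ght1 did not without dim-input probes. At ght5, for example, the difference was 0.08 with a 95% interval of −0.43 to 0.58.

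**Figure D3:**
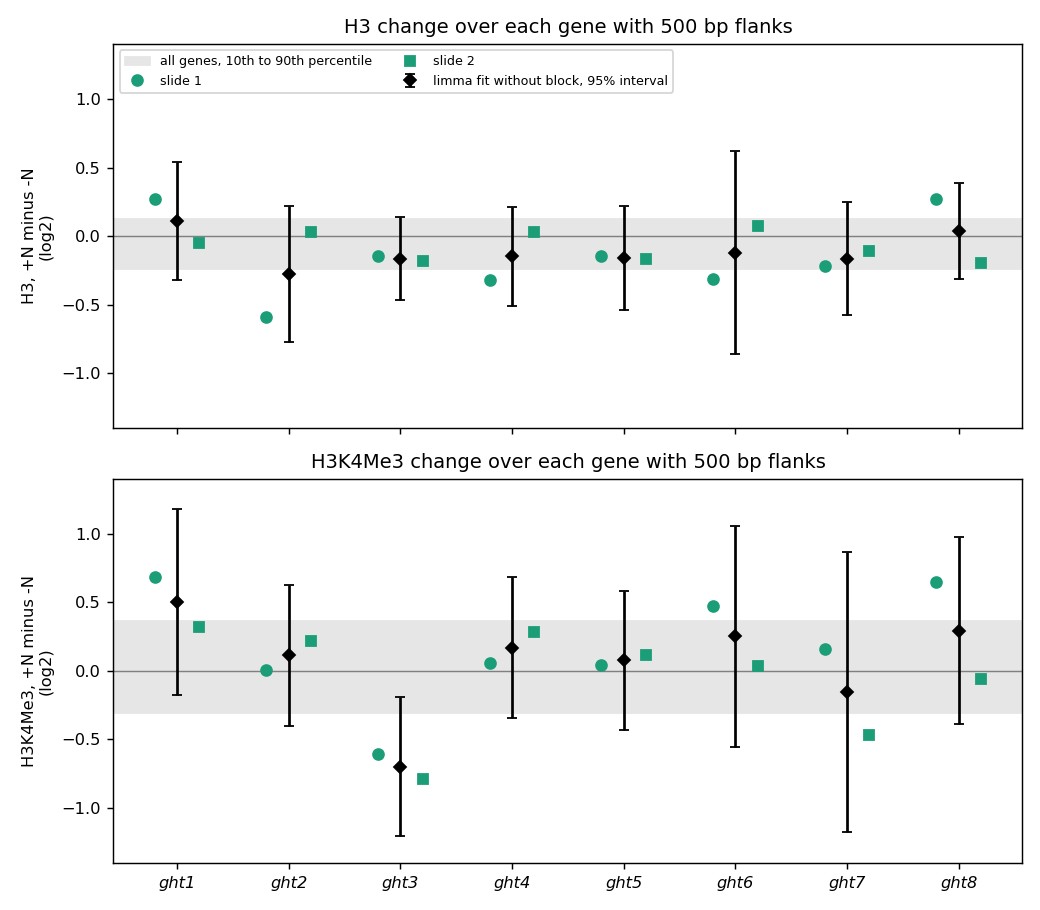
Difference between +N and −N (log2, y axis) in H3 (top) and H3K4Me3 (bottom) for ght1 to ght8 (x axis). Diamonds with bars are the limma estimate and its 95% interval, green circles and squares the difference within slide 1 and slide 2, and the grey band the 10th to 90th percentile over 4318 genes. All probes are used, and for H3K4Me3 ght3 is the 1 member whose interval lies below 0.

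In the main fit the largest H3K4Me3 difference in the family was at ght3, but ght1 exceeded it in size with quantile normalization (0.62 against −0.61), with the median over probes (0.52 against −0.28) and without dim ChIP probes (1.86 against −1.03), and ght7 did with normexp background (−0.66 against −0.61). Without dim ChIP probes the ght1 value rested on the probe at 3420 bp alone, past the 3′ end. The ght3 value then rested on the probes at −222 and 298 bp. Leaving out single H3K4Me3 arrays put ght1, ght7 or ght8 first in 3 of 4 cases. In the main fit the ght3 difference was −0.70 (SE 0.21, 95% interval −1.21 to −0.19, adjusted p = 0.999, or 0.0564 with the slide as a block), at percentile 0.324 of all changes. It was present within each slide, −0.61 on slide 1 and −0.79 on slide 2. The difference was largest at the 5′ end. At −222 bp H3K4Me3 was 3.17 and 3.78 on the −N arrays and 1.92 and 2.93 on the +N arrays, and at 26 bp it was 2.11 and 2.36 on the −N arrays and 0.02 and 1.23 on the +N arrays. At 298 bp it was 0.30 and 1.00 on the −N arrays and −0.77 and 0.07 on the +N arrays. At these 3 probes every +N array was below every −N array. From 806 bp onward the arrays overlapped at 3 of the 6 probes. Averaged from −250 to 750 bp the ght3 difference was −1.22 (SE 0.44, 95% interval −2.10 to −0.35, adjusted p = 0.801), −1.47 on slide 1 and −0.97 on slide 2. Other members whose groups did not overlap in this 5′ window were ght5, which was lower in +N (background of lower genes 3.85%), and ght2, ght7 and ght8, which were higher (28.2%), and none passed an adjusted p of 0.05, against 0.0701% of 4281 genes. At an unadjusted p under 0.05 there was 1 member, ght3 (4.32%). H3 differed less at the same place, by −0.25 (95% interval −0.75 to 0.25), and the difference between the changes over the region was −0.53 (95% interval −1.03 to −0.04, adjusted p = 0.998).

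**Figure D4:**
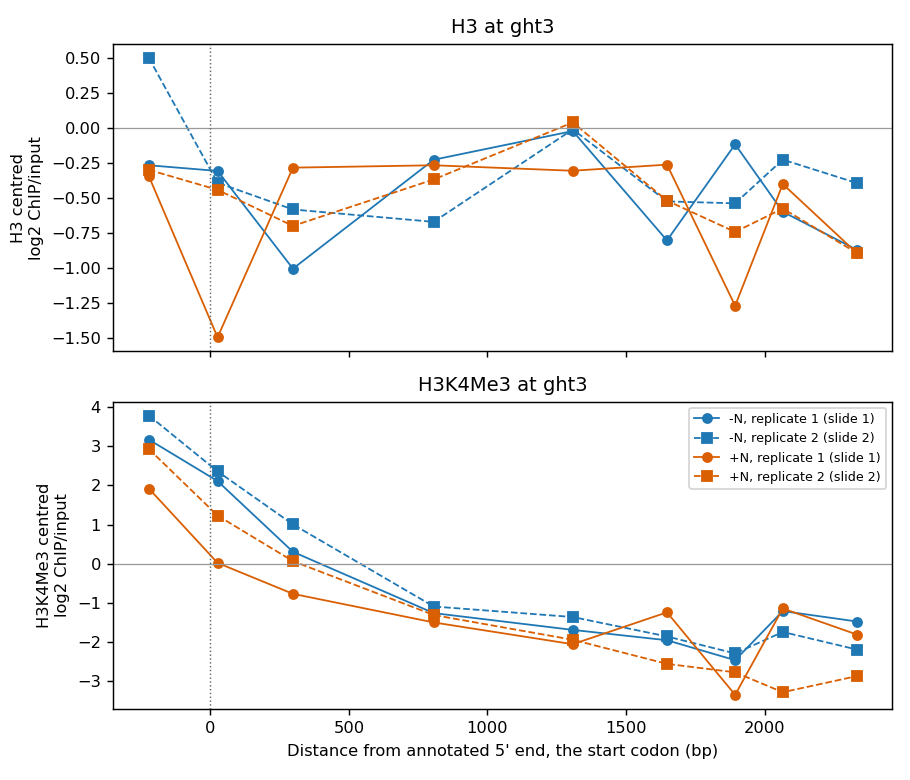
H3 (top) and H3K4Me3 (bottom) at the 9 probes of ght3, as centred log2 ChIP/input (y axis) by distance in bp from the start codon (x axis, dotted line at 0), 1 line per array. Blue is −N, orange is +N, circles and solid lines are slide 1, squares and dashed lines slide 2. The 2 +N lines lie below the 2 −N lines for H3K4Me3 at the first 3 probes.

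Running means over 5 probes were compared in the same way. Of 80 such windows centred on the members or their flanks, 0 passed for H3 and 0 for H3K4Me3 without the slide in the fit, against 0% of 37227 windows each, and 0 and 2 had an unadjusted p under 0.05 (background 2.24% and 4.26%). With the slide as a block, 0 of 80 passed for H3 (background 0.14%) and 5 of 80 for H3K4Me3, against 5.47% of all windows, which is a similar share. They were 2 each at ght1 and ght3 and 1 at ght6. Neighbouring windows share probes and are not independent. In the fit with the block the SE was the same at the windows given here, 0.236 for H3K4Me3 and 0.190 for H3. Its p-values therefore rank windows by the size of the difference and not by how well the arrays of a window agreed. At ght3 the window centred 443 bp from the start codon went from 0.53 and 0.94 in −N to −0.48 and 0.19 in +N, a difference of −0.87 (adjusted p = 0.0105 with the block and 0.974 without). At ght1 the window at 3355 bp, past the 3′ end, went from −0.39 and −0.70 to 0.99 and −0.23, a difference of 0.92 (adjusted p = 0.00637 with the block). At ght6 the window at 1839 bp differed by 0.73 (adjusted p = 0.0425 with the block). Of the 5 probes behind each, 2 had dim input in the ght1 and in the ght6 window and none in the ght3 window. Without dim-input probes, 3 windows passed with the block at ght1, 2 at ght3 and 0 at ght6, against 5.96% of windows. The ght1 probe at 3420 bp, near the centre of the window with the largest difference there (1.09 at 3314 bp), had −1.55 and −0.31 on the −N arrays and 1.20 and 0.66 on the +N arrays.

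Input DNA signal stood apart at 2 members, on slide 2 only. At ght7, input signal in +N was above that in −N by 1.87 on the H3 arrays and 1.96 on the H3K4Me3 arrays of slide 2, and by 0.09 and 0.34 on slide 1. At ght3 the same differences were 0.95 and 1.03 on slide 2 and −0.06 and 0.06 on slide 1. The other 6 members lay between −0.49 and 0.42. These 2 genes were the members nearest to a chromosome end, at 38.5 and 82.9 kb. How common such input differences were among all genes, or among genes near chromosome ends, is not given here. The H3K4Me3 difference at ght3 was −0.61 on slide 1 and −0.79 on slide 2. The part of input in the ratios at ght7 and ght3 was not tested.

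**Figure D5:**
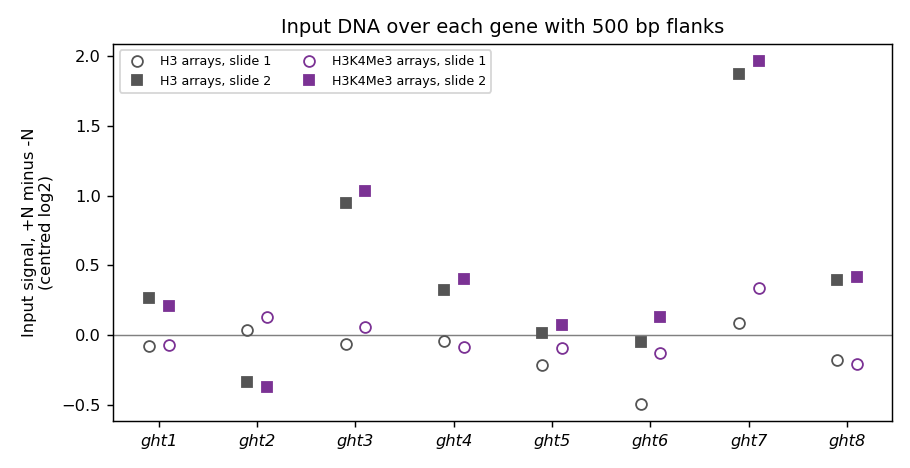
Difference between +N and −N in centred log2 input signal (y axis) over each gene with 500 bp flanks (x axis), for the H3 arrays (grey) and the H3K4Me3 arrays (purple). Open circles are slide 1 and filled squares slide 2. ght7 and ght3 stand above the other members on slide 2 only.

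Genes that use or sense the same sugars were examined beside the transporters. Of 7 tested genes of sugar phosphorylation and use (8 listed), 16 of the cAMP glucose-sensing pathway (18 listed) and 13 of AMPK, TORC2 and arrestin regulation (16 listed), 0 passed in either direction for H3 or H3K4Me3 without the block. Their median H3K4Me3 differences were 0.10, −0.06 and −0.08, against 0.01 over all genes. With the block 1 passed (background 0.834%), mal1, the maltase gene, for H3K4Me3. Its level was −0.48 and −0.27 on the −N arrays and 0.38 and 0.54 on the +N arrays, a difference of 0.83 (SE 0.22, adjusted p = 0.0297 with the block and 0.999 without), 0.86 on slide 1 and 0.81 on slide 2. mal1 ends 141 bp before the annotated 5′ end of ght4, so that its 3′ flank and the upstream flank of ght4 share probes. The other genes with the largest H3K4Me3 differences in their lists were gld1 (glycerol dehydrogenase, 0.43), tup12 (a corepressor, −0.53), git5 (a G protein beta subunit, −0.53), ekc1 (a phosphatase subunit, −0.45) and gad8 (a protein kinase, −0.42). None of these 5 passed either fit.

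The genes next to the members did not pass the test without the block. With the block mal1 passed for H3K4Me3, as given above. For the other adjoining genes that are not members, the fit with the block is not given here. The largest H3K4Me3 differences among them were 0.83 at mal1, 0.75 at SPCC1235.17, beside ght6, and 0.53 at frp1, which encodes a ferric reductase, on the other side of ght4. SPCC1235.17 lies 507 bp from the end of ght6. Its flank therefore takes in the dim-input probes at 2026 and 2202 bp of ght6, and its value without them is not given here. Around ght3 the neighbours SPAPJ695.01C and shu1 had differences of 0.03 and 0.12, each with opposite signs on the 2 slides. The genes whose 8 array values were closest to those of ght3 were pgm1, thi5 and ptl2, at Euclidean distances of 0.59, 0.63 and 0.65 over the 8 arrays.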

How the data were processed

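The deposited intensity values were made by the authors with Agilent Feature Extraction 10.7.3.1 (per the file headers), which subtracted local background and normalized the dyes. Per the labels, red was ChIP and green was input DNA on every array. The authors' deposited log2 table equals the log2 ratio of these signals. Here the ratio of processed signals was taken, 5402 of 42641 nuclear probes (12.7%) marked as outlier spots on any array were left out, and each array was centred on its median. The genome build of the arrays is not given in the sources used here. Probe positions were laid over the ASM294v3 annotation, and the part of chromosome I beyond 3750000, where they are offset, was left out.

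Gene values are means over probes within the gene and 500 bp on either side, and windows are running means of 5 probes. Differences were tested with limma 3.58.1 (lmFit, eBayes) in R 4.3.3, on the arrays of the antibody concerned, with Benjamini-Hochberg adjustment over all genes or windows and a threshold of 0.05. The main fit had no block and an alternative had the replicate number, which is the slide, as a block. Deviations of same-numbered arrays correlated between −N and +N over 4318 genes (0.257 for H3, 0.623 for H3K4Me3), and same-numbered arrays share a slide. Slide and any other batch of the same number cannot be told apart. The study calls its replicates biological without saying how their cultures were kept apart. The p-values therefore measure at most the spread between these arrays, and 2 arrays a group limit the precision. In the window fit with the block, limma gave the member windows of an antibody a common SE, so p there follows the size of the difference alone. Other alternatives were quantile normalization, normexp background correction with an offset of 50 (on median spot signals, since a mean was not used), outlier spots kept, the deposited log2 table, dim or repeated probes left out, other regions, the median over probes, and each array left out.

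Members, gene lists and tests were chosen with earlier results of these data known. All 8 members, list genes that passed either fit, the 2 genes of each list with the largest H3K4Me3 difference, adjoining genes and the 3 genes nearest to ght3 over all arrays are named. The promoter window, the dim-input filter and the median over probes were chosen after seeing the data, and motif counts were also made in other windows. Matches to other places were found with blastn 2.17.0, and other steps were run in Python 3.11.15. The limma fit without the block was tested on simulated gene values without a slide effect. The fit with the block and the window fits were not tested in that way.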

Additional observations from a re-analysis of the deposited data

How the results depend on the processing

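No member passed the threshold over its region under any alternative run, gene values with the slide as a replicate block included, and the H3K4Me3 difference at ght3 kept its sign in all of them (−0.76 to −0.64 when single arrays were left out). The calls that moved were those of H3K4Me3 windows, from 0 to 5 of 80 with the replicate block, and to 5 of 74 with the block and without dim-input probes. Of 262 values under alternatives other than leaving out an array, 23 had the opposite sign to the main value, none of them called, and the cause was not tested. For H3 these were ght8 with normexp background (−0.040) and without dim probes (−0.0025), ght5 with the median over probes (0.073) and over the gene body only (0.0026), and ght4 at the 5′ end (0.10). For H3K4Me3, ght7 reversed with quantile normalization (0.049), the median over probes (0.051), the gene body only (0.14) and the 5′ end (0.26), and ght5 without repeated probes (−0.018), with the median (−0.17) and at the 5′ end (−0.34). H3K4Me3 at ght8 reversed with normexp (−0.21) and without dim probes (−0.00083), at ght2 in the deposited table and with outlier spots kept (−0.052 in both), and at ght6 over the gene body (−0.075) and the 5′ end (−0.34). The H3K4Me3 difference minus the H3 difference reversed at ght7 (−0.57) and ght8 (−0.17) with normexp, at ght5 with the median (−0.24) and at the 5′ end (−0.19), and at ght6 at the 5′ end (−0.19).

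Leaving out 1 array at a time gave 128 values, of which 19 reversed. The lone array of a group was then assumed to vary like the others. The H3 ranges that crossed 0 were −0.13 to 0.35 at ght1, −0.60 to 0.043 at ght2, −0.33 to 0.033 at ght4, −0.58 to 0.34 at ght6, −0.36 to 0.030 at ght7 and −0.10 to 0.18 at ght8. For H3K4Me3 they were −0.19 to 0.69 at ght6, −0.77 to 0.47 at ght7 and −0.068 to 0.65 at ght8, and for the difference between the antibodies −0.089 to 0.83 at ght6, −0.61 to 0.63 at ght7 and −0.11 to 0.61 at ght8. Without dim ChIP probes ght7 had no H3K4Me3 value, and the ght1 difference rested on the probe at 3420 bp alone (1.86, adjusted p = 0.0848).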
